A study of Mus musculus with 9 samples.

Results

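The interleukin 6 family and the transcription factor STAT3 were examined in whole-lung RNA-seq of mice with lung injury from mechanical ventilation (ventilator-induced lung injury, VILI). The family was taken as 9 genes of the 23713 Ensembl genes in the expression table: the ligands Il6, Lif, Osm and Il11, the receptor chains Il6ra, Il6st, Osmr and Lifr, and Stat3. The genes were chosen by name, each gene ID of the table was paired with its symbol in GENCODE M21, and the FPKM of all rows of a gene were added. FPKM counts the sequenced fragments of a transcript relative to its exon length and to the size of the library. All 9 genes were found and all 9 passed the filter of a mean of at least 0.1 FPKM, which 17131 genes passed. All mice were young adult male C57BL/6 mice without a genetic change, anaesthetised with ketamine and xylazine and intubated, with 3 mice in each of 3 groups. Control mice were intubated and not ventilated. VILI 0 hours mice were killed directly after several hours of mechanical ventilation with a high tidal volume, and VILI 6 hours mice 6 hours after it had ended. The VILI mice also received the muscle relaxant pancuronium, so ventilation and muscle relaxation cannot be told apart. The methods mention a control procedure but not which time after it applied to the control mice sequenced.

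Cytokines of this family signal through gp130, the receptor chain encoded by Il6st. Interleukin 6 binds the interleukin 6 receptor (Il6ra) and oncostatin M (Osm) the oncostatin M receptor (Osmr), while leukaemia inhibitory factor (Lif) binds its own receptor (Lifr), and each complex recruits gp130. Janus kinases bound to the chains then phosphorylate STAT3, which enters the nucleus and induces acute-phase genes and its own inhibitor, Socs3. In the lung the pathway is known from acute inflammation, where leukocytes release ligands and epithelial, endothelial and mesenchymal cells carry gp130. RNA levels were measured here, and neither the proteins nor the phosphorylation of STAT3.

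The members lie on 6 chromosomes of GRCm38 and form close pairs at 2 places. Osm (chr11:4236420-4241026, plus strand) and Lif (chr11:4257557-4272514, plus strand) are separated by 16530 bases with no annotated gene between them. Osmr (chr15:6813577-6874969, minus strand) and Lifr (chr15:7090614-7197489, plus strand) are separated by 215644 bases with no protein-coding gene between them. Stat3 (chr11:100885098-100939540, minus strand), Il6 (chr5:30013114-30019981, plus strand), Il11 (chr7:4772373-4782859, minus strand), Il6ra (chr3:89864059-89913196, minus strand) and Il6st (chr13:112464070-112510086, plus strand) lie apart from the others. The neighbours did not share 1 pattern: Osm was higher in both VILI groups while Lif was lower in each library at 0 hours without passing the test, and Osmr was higher at 6 hours while Lifr was lower.

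The upstream sequences of Il6 and Lif are shown because these ligands are the members whose 250 bases before the start site held 2 kinds of inflammatory motif. Windows were taken from RefSeq on GRCm38.p6, where 8 of the 9 members had an entry. Motifs were searched on both strands: AP-1 as TGANTCA, the cyclic AMP response element as TGACGTCA, the STAT element as TTCNNNGAA and the NF-kappaB site by its usual consensus. Capitals mark the AP-1 match and then the NF-kappaB match in each sequence, read 5′ to 3′ on the plus strand, at chr5:30012864-30013113 for Il6 and chr11:4257318-4257567 for Lif.
Il6: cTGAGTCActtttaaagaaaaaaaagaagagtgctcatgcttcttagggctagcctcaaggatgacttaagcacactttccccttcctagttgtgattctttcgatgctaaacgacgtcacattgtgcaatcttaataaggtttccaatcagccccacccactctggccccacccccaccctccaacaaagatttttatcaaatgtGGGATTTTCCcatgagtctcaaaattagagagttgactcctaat
Lif: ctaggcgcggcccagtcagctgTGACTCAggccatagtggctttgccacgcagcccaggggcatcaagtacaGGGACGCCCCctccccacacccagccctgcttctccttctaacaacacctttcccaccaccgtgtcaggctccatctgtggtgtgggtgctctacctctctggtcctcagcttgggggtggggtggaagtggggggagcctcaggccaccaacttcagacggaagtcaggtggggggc
The AP-1 match began 249 bases before the start in Il6 and 228 bases before it in Lif. The NF-kappaB match began 44 bases before the start in Il6 and 178 bases before it in Lif. An AP-1 match was also found in the Il11 window at chr7:4778142-4778391, 98 bases before the start, and not in that at chr7:4782858-4783107. Lifr had a further window as well, without a match. Counting a member by any of its windows, 3 of the 8 members with a window held AP-1 and 2 held NF-kappaB. Among 32851 windows of all genes, 6.75% held the AP-1 letters and 7.25% those of NF-kappaB. None of the 8 members held the STAT element, which 7.02% of all windows held, or the cyclic AMP response element, held by 1.55%. These matches describe letters and not binding.

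In the control lung the receptor chains and Stat3 stood far above the ligands. FPKM is per length, so genes can be set side by side on this scale. Control means ran from 58.8 ± 15.7 FPKM (SD, n = 3) for Il6st, 50.1 ± 5.15 for Lifr and 29.6 ± 0.854 for Stat3 to 18.0 ± 0.401 for Osmr and 12.3 ± 0.488 for Il6ra. The ligands lay lower, with 1.26 ± 0.331 FPKM for Lif, 0.335 ± 0.0219 for Osm, 0.216 ± 0.0707 for Il6 and 0.182 ± 0.0313 for Il11. The ranges of the libraries overlapped only between the neighbours Il6st and Lifr and between Il6 and Il11, so the libraries of all other neighbours in this order lay apart. At VILI 0 hours Lifr stood above Il6st, Il6ra above Osmr and Osm above Lif, and only the ranges of Il11 and Il6 overlapped among neighbours. At VILI 6 hours the order was Il6st, Stat3, Osmr, Lifr, Il6ra, Il6, Osm, Lif and Il11, and the ranges overlapped between neighbours from Stat3 to Lifr and from Il6ra to Lif.

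**Figure D1:**
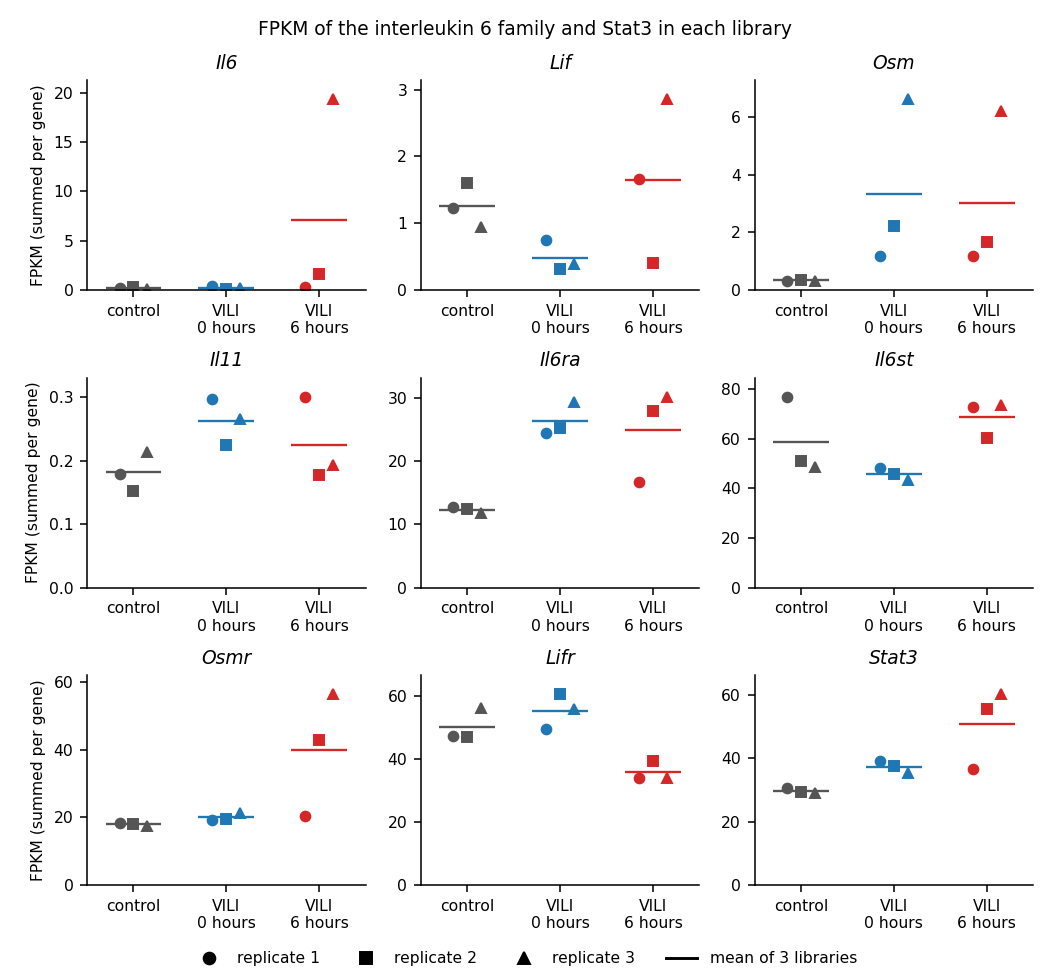
FPKM of each member in the 9 libraries (vertical axes, linear from 0 and scaled per gene), with circles, squares and triangles for replicates 1, 2 and 3 and a line at the mean of each group. Osm and Il6ra are higher in all VILI libraries than in any control library, Lifr is lowest in the 3 VILI 6 hours libraries, and the Il6 mean at 6 hours rests mainly on replicate 3 with 19.3 FPKM.

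Directly after ventilation Osm and Il6ra rose, and no member fell. Changes were tested with limma on log2(FPKM + 0.1). "Rose", "fell" and "called" stand for an unadjusted P under 0.05 (the study's own cutoff), while the p printed is the one adjusted by Benjamini-Hochberg over all genes tested. By this measure 2 of the 9 members rose, beside 7.02% of all 17131 genes tested that rose, 10.1% that fell and 17.1% called in either direction. The median log2 fold change was 0.16 over the members and -0.08 over all genes. In whole lung, a change in the number of cells of a type and a change in RNA per cell cannot be told apart. At VILI 6 hours against control 5 members rose (Il6, Osm, Il6ra, Osmr and Stat3) and Lifr fell, beside 7.91% of all genes that rose, 13.1% that fell and 21.0% called in either direction. The median was 0.74 over the members and -0.10 over all genes. Between VILI 6 hours and VILI 0 hours 5 members rose (Il6, Lif, Il6st, Osmr and Stat3) and Lifr fell, where 5.02% of all genes rose, 5.25% fell and 10.3% were called, with medians of 0.41 and -0.03. The comparisons with control share the same 3 control libraries.

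No member passed an adjusted p of 0.05 (Benjamini-Hochberg over 17131 genes) in any comparison, against the 2, 6 and 6 members with an unadjusted P under 0.05. Among all genes 0.304%, 0.753% and 0.0% passed it in the same order of comparisons. Library 1 of VILI 6 hours stood nearer to control than libraries 2 and 3 for Il6, Il6ra, Osmr, Stat3 and Socs3. Without it, 3, 6 and 4 members had an adjusted p under 0.05 (limma), and 3, 6 and 5 an unadjusted P under 0.05. Over all genes 7.93%, 25.5% and 2.08% then passed the adjusted threshold and 24.7%, 40.5% and 23.2% the unadjusted one. Without library 3, which held the highest values of Il6, Osm, Il6ra, Osmr and Stat3 in its group, 2, 0 and 0 members passed the adjusted threshold and 4, 6 and 3 the unadjusted one, beside 1.76%, 0.309% and 0.00584% of all genes and 21.4%, 14.6% and 10.0% of them. Without control library 1, 2 or 3 the share of all genes under the adjusted threshold fell to 0.0234%, 0.0117% and 0.00584% at 0 hours against control and to 0.0175%, 0.0% and 0.00584% at 6 hours. Libraries of the compared groups did not overlap for 7 members at 0 hours against control, 5 of them higher and 2 lower, beside 35.5% of all genes (12.3% higher, 23.2% lower). The same held for 5 members higher and 1 lower at 6 hours against control, beside 25.5% (9.53% higher, 15.9% lower). Between the VILI groups it held for 1 member higher and 1 lower, beside 12.7% (6.19% higher, 6.55% lower).

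**Figure D2:**
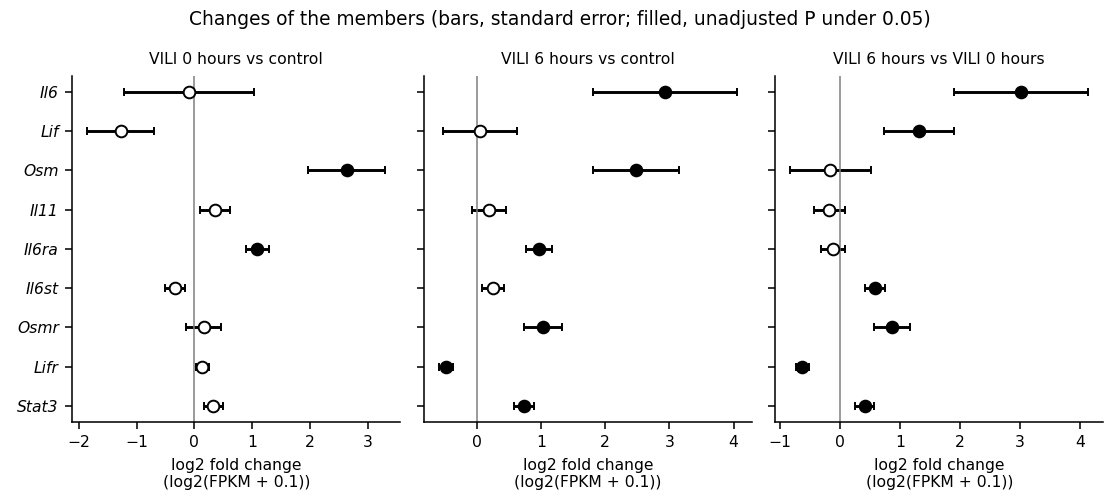
Log2 fold change of each member on the log2(FPKM + 0.1) scale in the 3 comparisons (horizontal axes), with bars of 1 standard error from limma and filled points for an unadjusted P under 0.05. Filled points number 2, 6 and 6 from left to right, and Lifr is the only filled point below 0.

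Osm, a ligand made by activated neutrophils and macrophages, was the 1 ligand that rose at 0 hours. Its level was 0.317, 0.359 and 0.329 FPKM in the control libraries 1 to 3. It was 1.16, 2.22 and 6.61 FPKM at VILI 0 hours and 1.18, 1.65 and 6.19 FPKM at VILI 6 hours. All 6 VILI libraries lay above all control libraries, and the VILI groups overlapped across a wide range. The log2 fold change against control was 2.63 (SE 0.67, limma adjusted p = 0.103) at 0 hours and 2.48 (adjusted p = 0.107) at 6 hours. Between the VILI groups it was -0.16 (limma adjusted p = 0.957).

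Il6, the founding member of the family and a fever and acute-phase cytokine, was near the bottom of the measured range until 6 hours. The control libraries held 0.232, 0.277 and 0.138 FPKM and the VILI 0 hours libraries 0.386, 0.0961 and 0.162 FPKM. At VILI 6 hours the libraries held 0.306, 1.58 and 19.3 FPKM. Library 1 of VILI 6 hours lay within the VILI 0 hours range while library 3 lay far above every other library. The log2 fold change was -0.09 (limma adjusted p = 0.977) at 0 hours against control, 2.93 at 6 hours against control (SE 1.12, adjusted p = 0.188) and 3.02 between the VILI groups (adjusted p = 0.411). Without library 3 the fold change at 6 hours against control was 1.41 on the log2 scale (limma adjusted p = 0.338), and without library 1 it was 4.20 (adjusted p = 0.0110). The call against control was lost with a pseudocount of 1, where the log2 fold change was 1.75 (limma adjusted p = 0.242). It was also lost without control library 1 (limma adjusted p = 0.346) or 3 (adjusted p = 0.396), with only the 6 libraries compared (adjusted p = 0.283) and for the row with the highest mean (adjusted p = 0.433). Between the VILI groups the call was lost without VILI 0 hours library 2 or 3, and the log2 fold change was 1.5 without library 3 of VILI 6 hours (limma adjusted p = 0.485).

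Lif, which acts through Lifr and gp130, was called higher at 6 hours than at 0 hours, a call that few alternatives kept. Its level was 1.23, 1.61 and 0.945 FPKM in control and 0.748, 0.308 and 0.391 FPKM at VILI 0 hours. At VILI 6 hours the libraries held 1.67, 0.408 and 2.86 FPKM. The VILI 0 hours libraries lay below all control libraries without passing the test (log2 fold change -1.27, SE 0.58, limma adjusted p = 0.306). The difference at 0 hours was called in 5 of 19 alternatives, and passed the adjusted threshold with only the 6 libraries compared (limma adjusted p = 0.0474) and with library weights (-1.51, adjusted p = 0.0371). Lif rose between the VILI groups by a log2 of 1.32 (limma adjusted p = 0.479), although library 2 of VILI 6 hours stayed within the VILI 0 hours range. This call was lost in 16 of 19 alternatives. The log2 fold change was 0.77 without library 3 and 2.04 without library 2 of VILI 6 hours, and 0.44 with library weights (limma adjusted p = 0.610). Against control the 6 hours difference was 0.05 (limma adjusted p = 0.965), while with library weights Lif was called lower (-1.07, adjusted p = 0.0799).

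Il11, a ligand with a receptor of its own that is studied in fibrosis, was low in every library and passed no test. The control libraries held 0.180, 0.152 and 0.215 FPKM. The VILI 0 hours libraries held 0.298, 0.225 and 0.265 FPKM, all above control, and the VILI 6 hours libraries 0.301, 0.178 and 0.194 FPKM. The log2 fold change was 0.36 at 0 hours (SE 0.26, limma adjusted p = 0.512) and 0.19 at 6 hours (adjusted p = 0.688). At this level the pseudocount of 0.1 weighs heavily and understates a change.

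Il6ra, the chain that gives cells interleukin 6 specificity and is also shed in soluble form, had the smallest adjusted p of the members against control. Its level was 12.8, 12.4 and 11.8 FPKM in control and 24.4, 25.3 and 29.3 FPKM at VILI 0 hours. At VILI 6 hours the libraries held 16.7, 28.0 and 30.1 FPKM. Every VILI library lay above every control library. Il6ra rose by a log2 of 1.09 at 0 hours (SE 0.20, limma adjusted p = 0.0603) and of 0.97 at 6 hours (adjusted p = 0.0619). The call held in every alternative tried, with a log2 fold change of 1.01 to 1.24 at 0 hours and 0.81 to 1.23 at 6 hours. With 3 libraries a group, the smallest two-sided p of an exact permutation test is 0.1, which any gene reaches whose groups do not overlap. Il6ra reached it in both comparisons with control, as did Osm, Osmr and Stat3.

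Il6st, the shared gp130 chain, was the only receptor chain that was lowest at 0 hours. Control libraries held 76.8, 50.8 and 48.7 FPKM, VILI 0 hours libraries 48.1, 45.6 and 43.4 FPKM, and VILI 6 hours libraries 72.7, 60.2 and 73.5 FPKM. The VILI 0 hours libraries lay below all control libraries and below all VILI 6 hours libraries, and control library 1 lay far above the other control libraries. The rise from 0 to 6 hours was 0.58 on the log2 scale (SE 0.17, limma adjusted p = 0.308) and kept an unadjusted P under 0.05 in every alternative tried. Against control the differences of -0.33 at 0 hours (limma adjusted p = 0.349) and 0.25 at 6 hours (adjusted p = 0.395) did not pass. Without control library 1 they were -0.12 (limma adjusted p = 0.728) and 0.46 (adjusted p = 0.208), the latter with an unadjusted P under 0.05. Without control library 3 the difference of -0.45 at 0 hours was also called (limma adjusted p = 0.357).

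Osmr, a receptor chain for oncostatin M, rose at 6 hours and passed no test at 0 hours. Control libraries held 18.3, 18.2 and 17.5 FPKM, VILI 0 hours libraries 19.3, 19.6 and 21.4 FPKM, and VILI 6 hours libraries 20.5, 42.9 and 56.4 FPKM. The VILI 0 hours libraries lay just above control, and library 1 of VILI 6 hours lay among them. At 0 hours the log2 fold change was 0.16 (limma adjusted p = 0.824). Osmr rose by a log2 of 1.03 at 6 hours against control (SE 0.30, limma adjusted p = 0.120) and of 0.87 against VILI 0 hours (adjusted p = 0.377). Without library 3 of VILI 6 hours the latter was 0.56 (limma adjusted p = 0.506), and without library 2 it was 0.76 (adjusted p = 0.507).

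Lifr, the chain for leukaemia inhibitory factor that also serves oncostatin M, was the 1 member that fell. Control libraries held 47.3, 47.0 and 56.0 FPKM, VILI 0 hours libraries 49.6, 60.5 and 55.7 FPKM, and VILI 6 hours libraries 34.0, 39.5 and 33.9 FPKM. The 3 VILI 6 hours libraries lay below all 6 others and close together, libraries 1 and 3 at nearly the same level. Lifr fell by 0.48 on the log2 scale at 6 hours against control (SE 0.11, limma adjusted p = 0.0819) and by 0.63 against VILI 0 hours (adjusted p = 0.144). The difference at 0 hours was 0.14 (limma adjusted p = 0.560). Both calls at 6 hours held in every alternative tried.

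The balance between Osmr and Lifr within a library turned at 6 hours. The log2 ratio of Osmr to Lifr was -1.37, -1.37 and -1.67 in control and -1.36, -1.62 and -1.37 at VILI 0 hours. It was -0.73, 0.12 and 0.73 at VILI 6 hours, above all 6 other libraries. In mean ratio Osmr stood at 0.361 of Lifr in control, 0.366 at 0 hours and 1.03 at 6 hours. The 3 groups differed in an exact permutation test over all 280 divisions of the libraries (p = 0.0286). The difference at 6 hours against control was 1.51, at the smallest exact two-sided p of 0.1 that 3 against 3 libraries allow. It was 1.16 without library 3 and 1.89 without library 1 of VILI 6 hours.

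The balance between Il6ra and Il6st shifted at 0 hours. The log2 ratio of Il6ra to Il6st was -2.58, -2.03 and -2.04 in control, -0.97, -0.85 and -0.57 at VILI 0 hours and -2.12, -1.10 and -1.28 at VILI 6 hours. The VILI 0 hours libraries stood above all others, and library 1 of VILI 6 hours lay in the control range. In mean ratio Il6ra stood at 0.215 of Il6st in control, 0.576 at 0 hours and 0.353 at 6 hours, and the 3 groups differed in the exact permutation test (p = 0.0107 over 280 divisions). Both ratios were built from members with known values, so they restate the levels above within each library.

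**Figure D3:**
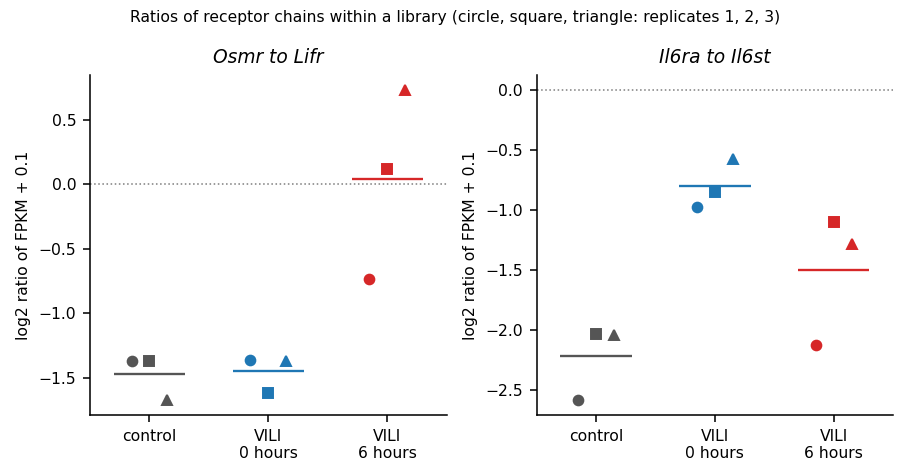
Log2 ratio of Osmr to Lifr (left) and of Il6ra to Il6st (right) in each library on the log2 scale of FPKM + 0.1, with a line at the mean of each group of 3 and a dotted line at equal levels. The Osmr to Lifr ratio runs from -0.73 to 0.73 at 6 hours and from -1.67 to -1.36 in the other 6 libraries.

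Stat3, the transcription factor at the end of the relay, rose at 6 hours. Control libraries held 30.6, 29.3 and 29.0 FPKM, VILI 0 hours libraries 39.1, 37.5 and 35.2 FPKM, and VILI 6 hours libraries 36.5, 55.3 and 60.1 FPKM. All 6 VILI libraries lay above control, and library 1 of VILI 6 hours lay within the VILI 0 hours range. Stat3 rose by a log2 of 0.74 at 6 hours against control (SE 0.16, limma adjusted p = 0.0735). It rose by 0.41 between the VILI groups (limma adjusted p = 0.440), a call lost without library 3 of VILI 6 hours (0.27, adjusted p = 0.596) or library 2 (0.33, adjusted p = 0.609). It was also lost without any 1 VILI 0 hours library, where the log2 fold change was 0.37 to 0.45. At 0 hours the difference of 0.33 did not pass with all libraries (limma adjusted p = 0.347), while it did in 5 of 19 alternatives, such as with only the 6 libraries compared (adjusted p = 0.0279) or without library 1 of VILI 6 hours (adjusted p = 0.0334). In the exact permutation test over 280 divisions the 3 groups differed for Stat3 (p = 0.0107), Lifr (p = 0.0107), Il6ra (p = 0.0321) and Osmr (p = 0.0393). That test gave p of 0.0536 for Il6st, 0.0607 for Osm, 0.0750 for Il6, 0.175 for Lif and 0.186 for Il11, and no F test of limma passed after adjustment (smallest limma adjusted p = 0.0660, for Il6ra).

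Socs3, the inhibitor that STAT3 induces and that binds gp130, was read beside the members. Control libraries held 12.2, 9.82 and 11.3 FPKM, VILI 0 hours libraries 22.7, 44.7 and 30.7 FPKM, and VILI 6 hours libraries 25.5, 101 and 159 FPKM. Every VILI library lay above control, and library 1 of VILI 6 hours lay within the VILI 0 hours range. Socs3 rose by a log2 of 1.5 at 0 hours (SE 0.56, limma adjusted p = 0.219) and of 2.74 at 6 hours (adjusted p = 0.0614). Between the VILI groups the difference of 1.23 did not pass (limma adjusted p = 0.495), and without library 1 of VILI 6 hours it was 2.0 (adjusted p = 0.0166). The call at 0 hours was lost without VILI 0 hours library 2 (1.25, limma adjusted p = 0.386) and without control library 2 (1.42, adjusted p = 0.490) or 3 (1.52, adjusted p = 0.396).

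**Figure D4:**
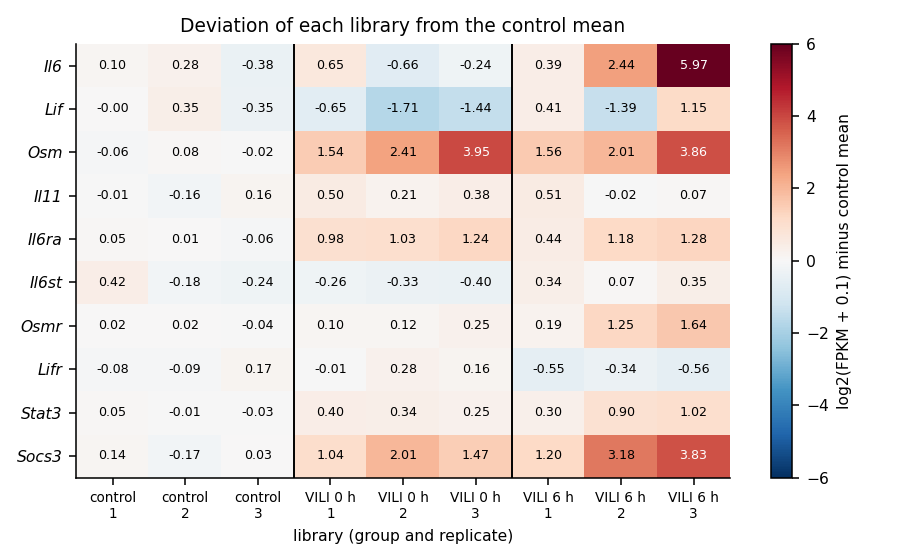
Deviation of each library (columns) from the control mean on the log2(FPKM + 0.1) scale for the 9 members and Socs3 (rows), with red above and blue below control. At VILI 6 hours, Il6 deviates by 0.39, 2.44 and 5.97 and Lifr by -0.55, -0.34 and -0.56 in libraries 1 to 3.

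The rows of a gene in the table stand for its transcripts and carry no transcript ID, so they are numbered here in table order. The members had 29 rows, of which 5 were listed at 0 in every library (4 of Il6st and 1 of Stat3), and 23 passed the filter. At row level 5, 10 and 9 member rows of the 23 tested had an unadjusted P under 0.05 at 0 hours against control, 6 hours against control and 6 hours against 0 hours, beside 11.1%, 13.2% and 7.40% of all rows. None had an adjusted p under 0.05 over 34883 rows (limma). A single row held most of the gene in Osmr (row 2, 97.9%), Lifr (row 3, 86.7%) and Il6st (row 6, 84.7%), and these rows moved like the gene sums. Row 3 of Lifr fell by 0.51 at 6 hours against control (limma adjusted p = 0.171) and row 2 of Osmr rose by a log2 of 1.05 (adjusted p = 0.263).

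The rows of Stat3 did not move as 1 at 0 hours. Row 1, with 68.2% of the gene, held 20.2, 18.8 and 17.7 FPKM in control and 27.6, 26.5 and 26.2 FPKM at 0 hours, and rose by a log2 of 0.50 (limma adjusted p = 0.377). Row 2, with 23.6%, differed by -0.11 (limma adjusted p = 0.823), and the difference between these rows was not tested. At 6 hours against control rows 1, 2 and 4 rose by 0.83 (limma adjusted p = 0.175), 0.43 (adjusted p = 0.312) and 0.95 (adjusted p = 0.263). Both rows of Il6ra rose at 0 hours, by 0.85 (limma adjusted p = 0.264) and 1.24 (adjusted p = 0.133). In Il6st the small row 7 (2.43% of the gene) fell by 0.83 at 0 hours (limma adjusted p = 0.360), while row 6 differed by -0.33 (adjusted p = 0.607). In Lif the split between the rows swung from library to library: row 1 held 1.61 FPKM and row 2 none in control library 2, and row 1 none and row 2 0.308 FPKM in VILI 0 hours library 2. Row 1 of Il6 was listed at 0 in every library other than VILI 6 hours 2 and 3, with 0.628 and 3.95 FPKM. Assembled loci on the opposite strand lie over Il6ra, Il6st, Osmr, Lifr and Stat3 and reached at most 0.773 FPKM. The library kit is described differently in the sample records and in the methods, so it is unsettled whether reads of opposite strands could be told apart.

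Among other gp130 ligands, 6 of 8 listed genes were tested, while Ctf2 and Il31 were listed at 0. None passed at 0 hours against control, with Ebi3 highest (0.35) and Clcf1 lowest (-0.51, limma adjusted p = 0.297) on the log2 scale. At 6 hours against control Il27, a subunit of interleukin 27, rose by 0.96 (limma adjusted p = 0.209), while Clcf1 fell by 0.56 (adjusted p = 0.211). Il27 was also the 1 gene of this list called between the VILI groups (1.22, limma adjusted p = 0.353), where Ctf1 was lowest (-0.20). Without control library 1 or VILI 6 hours library 3, no gene of this list had an unadjusted P under 0.05 at 6 hours against control. The list medians were -0.14, -0.16 and -0.04 in the 3 comparisons.

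The other 4 receptor chains showed no rise. Il27ra fell at 6 hours against control by 0.68 (limma adjusted p = 0.174) and Il11ra1, the chain for interleukin 11, fell between the VILI groups by 0.39 (adjusted p = 0.385). The Il27ra call was lost without control library 1 or VILI 6 hours library 3, and that of Il11ra1 without VILI 0 hours library 2 or VILI 6 hours library 3. No chain passed at 0 hours, where Cntfr was highest (0.31) and Il27ra lowest (-0.38). Of 4 genes of receptor shedding, Rhbdf2, a partner of the sheddase ADAM17, rose at 6 hours against control (0.45, limma adjusted p = 0.145) and against 0 hours (0.48, adjusted p = 0.329), and none passed at 0 hours. Adam17 itself, which releases soluble interleukin 6 receptor, held 18.4 to 19.6 FPKM at 0 hours and 16.6 to 21.7 FPKM at 6 hours, against 18.6 to 21.5 FPKM in control.

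Of 11 Janus kinases and relay genes, the phosphatase gene Ptpn11 rose at both times against control, by 0.26 (limma adjusted p = 0.220) and 0.34 (adjusted p = 0.115). The Janus kinases Jak1, Jak2 and Tyk2 passed in no comparison, with log2 fold changes of 0.09, -0.12 and -0.40 at 0 hours and 0.13, 0.21 and -0.40 at 6 hours. Shc1 also rose at 6 hours against control (0.29, limma adjusted p = 0.186), where Grb2 was lowest (-0.47), and Stat5a rose between the VILI groups (0.59, adjusted p = 0.358), a call lost without VILI 0 hours library 1. Without library 1 of VILI 6 hours 6 of these genes were called at 6 hours against control and 3 between the VILI groups, where 40.5% and 23.2% of all genes were called. Without library 3, 3 were called between the VILI groups, beside 10.0% of all genes.

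Of 17 inhibitors of the pathway, 3 rose and 1 fell at 0 hours and 3 rose at 6 hours against control, where 17.1% and 21.0% of all genes were called. At 0 hours 2 were called without control library 2 or 3 (beside 10.7% and 12.7% of all genes), and at 6 hours 9 without library 1 and 6 without library 2 of VILI 6 hours, where 40.5% and 15.01% of all genes were called. Socs3 was highest at both times. The phosphatase gene Ptpn1 rose at both, by 0.68 (limma adjusted p = 0.173) and 0.97 (adjusted p = 0.0735). Socs1, the sister inhibitor that acts mainly on interferon signalling, fell at 0 hours by 0.79 (limma adjusted p = 0.146), from 3.56, 3.22 and 3.07 FPKM in control to 2.0, 1.97 and 1.61 FPKM. It rose from there to 3.85, 3.18 and 6.15 FPKM at 6 hours (1.15, limma adjusted p = 0.175), the 1 inhibitor called between the VILI groups. Without library 1 of VILI 6 hours 7 were called there (beside 23.2% of all genes), 3 without its library 2 (beside 10.3%) and 4 without VILI 0 hours library 2 (beside 7.67%). Socs7 rose at 0 hours (0.34, limma adjusted p = 0.255) and Cish at 6 hours (0.91, adjusted p = 0.120), and Socs5 was lowest at 6 hours against control (-0.37) without passing. The list medians were -0.01, 0.17 and 0.10.

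Most listed STAT3 target genes rose at 6 hours. Of 25 known targets 9 rose and 2 fell at 0 hours against control, and 19 rose and none fell at 6 hours. Of all genes 7.02% rose and 10.1% fell at 0 hours and 7.91% rose and 13.1% fell at 6 hours. The list medians were 0.67 and 1.38 beside -0.08 and -0.10 over all genes. Between the VILI groups 7 rose and none fell, with a median of 0.49, where 5.02% of all genes rose and 5.25% fell. Without library 1 of VILI 6 hours 14, 21 and 13 targets were called in the 3 comparisons, beside 24.7%, 40.5% and 23.2% of all genes. Without library 3 it was 13, 17 and 8, beside 21.4%, 14.6% and 10.0%. Many of these genes also answer to NF-kappaB or other factors, so the list describes genes that STAT3 can induce and not its activity. The list was drawn up with earlier results of these data known, so its counts are not an independent test of STAT3 targets.

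At 0 hours Cebpd, a transcription factor of the acute phase, was highest among the targets, with 8.90, 9.96 and 14.7 FPKM in control against 39.6, 53.2 and 89.4 FPKM. It rose by a log2 of 2.38 (limma adjusted p = 0.0958). Vegfa, a growth factor of alveolar epithelium and vessels, was lowest and fell by 0.47 (limma adjusted p = 0.236), from 282 to 311 FPKM in control to 210 to 213 FPKM. The other fall at 0 hours was that of the cell-cycle gene Ccnd1, by 0.43 (limma adjusted p = 0.231). At 6 hours Lrg1, an acute-phase glycoprotein, held 45.6, 78.4 and 135 FPKM against 14.8, 21.2 and 16.9 FPKM in control, and passed the adjusted threshold (log2 fold change 2.16, limma adjusted p = 0.0308). Timp1, an inhibitor of matrix metalloproteinases, held 8.90, 12.5 and 30.5 FPKM against 3.08, 2.97 and 1.62 FPKM and also passed it (2.56, limma adjusted p = 0.0357). The adjusted threshold was missed in 9 of 19 alternatives for Lrg1 and in 12 for Timp1, among them the fits without control library 1 (limma adjusted p = 0.135 and 0.116), 2 (adjusted p = 0.109 and 0.120) or 3 (adjusted p = 0.158 and 0.169). It was also missed by both without VILI 0 hours library 1 or VILI 6 hours library 2, and by Timp1 without VILI 0 hours library 3 or VILI 6 hours library 3. Saa3, an acute-phase serum amyloid, was highest at 16.5, 58.3 and 460 FPKM against 1.08, 2.83 and 0.922 FPKM (5.65, limma adjusted p = 0.0596). In each of these 3 genes library 1 was the lowest and library 3 the highest of VILI 6 hours, and all 3 libraries lay above control.

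**Figure D5:**
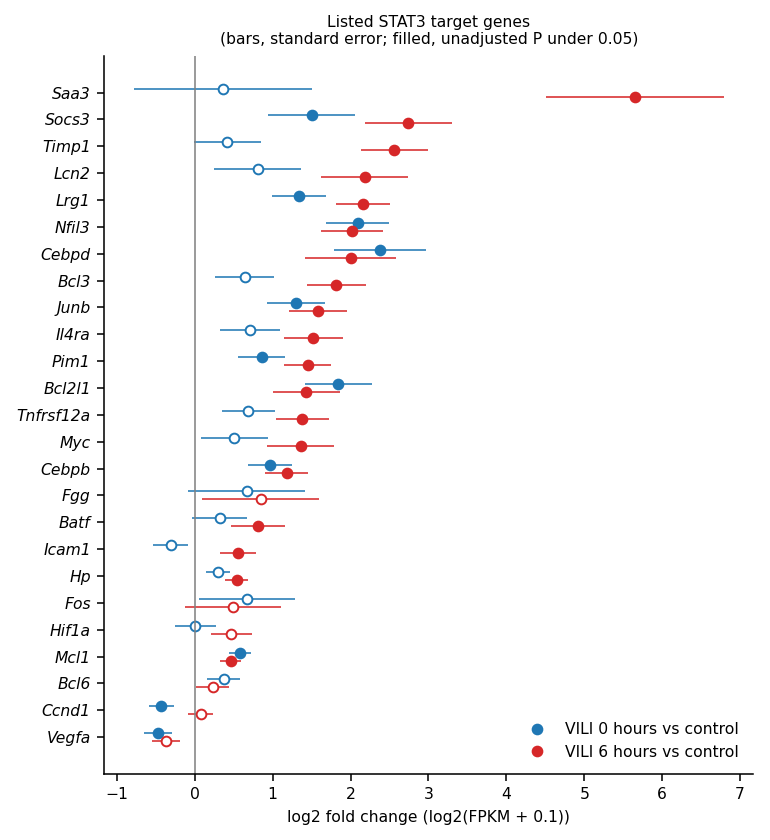
Log2 fold change on the log2(FPKM + 0.1) scale of the 25 listed STAT3 target genes at VILI 0 hours (blue) and VILI 6 hours (red) against control, with bars of 1 standard error from limma and filled points for an unadjusted P under 0.05. At 6 hours 19 points are filled, all above 0, from 0.46 for Mcl1 to 5.65 for Saa3, and at 0 hours 11 are filled, with Vegfa and Ccnd1 below 0.

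Markers of neutrophils moved with Osm and Il6ra. The summed FPKM of 12 listed neutrophil genes was 50.4 to 57.4 in control, 566 to 1029 at 0 hours and 468 to 2075 at 6 hours, and 8 and 9 of the 10 tested rose at these times. None of the 12 was at 0 throughout, while Ly6g, Camp, Mpo and Elane were at 0 in at least 1 library. Within VILI 6 hours the sum was 468, 1021 and 2075 in libraries 1 to 3, the order also of Osm, Il6, Il6ra, Osmr, Stat3 and Socs3. Within VILI 0 hours it was 566, 1029 and 852, while Osm and Il6ra were highest in library 3. The part of these cells in the levels of the members was not tested. Alveolar macrophage markers summed to 308 to 387 FPKM in control, 455 to 527 at 0 hours (5 of 8 rose) and 323 to 706 at 6 hours (1 rose and 1 fell against control, and 3 fell between the VILI groups). Monocyte and interstitial macrophage markers summed to 86.7 to 92.4, 86.2 to 142 and 109 to 163 FPKM, with none of 8 called at 0 hours and 3 higher at 6 hours. The shares of all genes against control were 7.02% higher and 10.1% lower at 0 hours, and 7.91% higher and 13.1% lower at 6 hours. Those between the VILI groups were 5.02% higher and 5.25% lower.

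Markers of resident lung cells were read beside Lifr and Il6st. Endothelial markers summed to 1099 to 1149 FPKM in control, 1031 to 1176 at 0 hours and 967 to 1187 at 6 hours. Fibroblast and smooth muscle markers summed to 709 to 828, 679 to 737 and 597 to 805 FPKM, alveolar type 1 markers to 1130 to 1174, 1189 to 1453 and 1033 to 1463 FPKM, and alveolar type 2 markers to 13710 to 15060, 13660 to 15980 and 12890 to 13800 FPKM. At both times against control 2 of 8 endothelial and 2 of 8 fibroblast and smooth muscle markers fell, while 2 of 6 alveolar type 1 markers rose. At 0 hours 1 fibroblast and smooth muscle marker and 1 of 7 alveolar type 2 markers rose, and 1 alveolar type 2 marker fell at 6 hours. Beside these short lists, 7.02% of all genes rose and 10.1% fell at 0 hours, and 7.91% rose and 13.1% fell at 6 hours. All markers of these 4 lists were above 0 in every library of this tissue, labelled lung. B cell markers summed to 41.1 to 54.6 FPKM in control, 17.5 to 56.0 at 0 hours and 11.4 to 34.3 at 6 hours (3 of 4 fell), and T cell markers, 6 of 7 of them measured, to 18.8 to 25.6, 17.0 to 31.5 and 9.59 to 26.2 FPKM. Cardiac muscle markers summed to 367 FPKM in VILI 0 hours library 3 and 164 to 198 elsewhere, and mesothelial markers to 88.3 FPKM in VILI 6 hours library 1 and 30.8 to 44.9 elsewhere. The part of these cells in the results was not tested.

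The genes whose levels followed a member most closely over the 9 libraries were ranked by Pearson r on log2(FPKM + 0.1) among 14005 genes with a mean of at least 1 FPKM. These r describe the pattern over libraries that share group and depth. For Il6 they were Ehd1 (0.986), Rnf19a (0.973) and Ptprj (0.972), and for Osm Mxd1 (0.978), Trem1 (0.977) and Gpr65 (0.976). For Il6ra they included Cd33 (0.985) and Il1r2 (0.984), and for Osmr Saa2 (0.985), Akap2 (0.982) and Ada (0.981). Stat3 was followed by Il4ra (0.990), Sbno2 (0.980) and Tnfrsf1a (0.977), and Lifr by Klhl24 (0.971), Clec1a (0.963) and Cav2 (0.953). Il6st was followed by Tbl3 (0.938), Tagln2 (0.931) and Dph5 (0.926), Il11 by Riox1 (0.936), Emc6 (0.921) and Nudt9 (0.917), and Lif by Gm37979 (0.910), Efl1 (0.908) and Gm43484 (0.907). Among the members themselves r was highest between Osmr and Stat3 (0.94), Il6 and Osmr (0.93) and Osm and Il6ra (0.91), and lowest between Il6st and Lifr (-0.81).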

How the data were processed

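Lung RNA-seq of 9 mice was analysed, 3 per group, grouped by the sample records. The authors mapped cleaned reads with TopHat. Scripture and Cufflinks served for assembly, and the deposited FPKM per transcript came from Cuffdiff (the submitters' processing notes list Bowtie2 2.0.6, TopHat2 2.0.9, Cuffdiff 2.1.1 and GRCm38). The table held 60108 rows, of which 3729 were assembled loci and were left out. Of 23713 Ensembl genes 23503 matched GENCODE M21, which gave names and positions. Column sums were 366360 to 388459 FPKM. Counts were not used here, so only the spread of 3 mice per group gives the precision. From the steps between low values, the depth of the other libraries relative to control 1 was estimated as 0.920 to 1.36, a ratio shared by only 22 to 38 of 282 to 418 genes. This estimate is rough. The paper's supplement lists the reads of each library, and their ratios to control 1 stay below its upper end.

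FPKM were summed per gene, and log2(FPKM + 0.1) of 17131 genes with a mean of at least 0.1 FPKM was fitted in limma 3.58.1 (R 4.3.3; lmFit, eBayes with a trend, group only). Calls use an unadjusted P under 0.05 as in the study, and adjusted p are Benjamini-Hochberg over all genes tested. Permutation tests were exact and two-sided for pairs of groups. The procedure was tested on simulated data. The members, the lists of ligands, receptors, shedding, relay, inhibitors, targets and markers, and the tests were chosen with earlier results of these data known. Named by rule were all members and their rows, Socs3, in each list the highest and lowest gene and those with an adjusted p under 0.05, and the 3 genes most like each member. Other list genes were named after their values were seen, and a few named by rule are not reported here. Motifs were searched in RefSeq windows of GRCm38.p6. Alternatives were pseudocounts of 0.01 and 1, a minimum mean of 1 FPKM, library weights (arrayWeights, gene by gene), the row with the highest mean, each library left out, a replicate block, centring by the median, eBayes with no trend, no filter and a fit to the 6 libraries of a comparison. Other software was matplotlib 3.10.9, pandas 2.3.3, scipy 1.17.1, numpy 2.4.6 and Python 3.11.15.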

Additional observations from a re-analysis of the deposited data

Results flagged for a closer look

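For 6 members the change from control differed between 0 and 6 hours (limma, unadjusted P under 0.05), beside 10.3% of all genes called. The test was that of VILI 6 hours against VILI 0 hours. Control cancels out of this difference, so these are the same calls as reported above between the VILI groups. On the log2 scale the signed change from control was higher at 6 hours by 3.02 for Il6 (limma adjusted p = 0.411), 1.32 for Lif (adjusted p = 0.479), 0.87 for Osmr (adjusted p = 0.377), 0.58 for Il6st (adjusted p = 0.308) and 0.41 for Stat3 (adjusted p = 0.440). For Lifr it differed by -0.63 (limma adjusted p = 0.144). No adjusted p passed 0.05 in this comparison over 17131 genes, the members ranging from 0.144 for Lifr to 0.479 for Lif. For Il6st and Lifr the libraries of the VILI groups did not overlap. For Il6, Lif, Osmr and Stat3 they did, with library 1 or library 2 of VILI 6 hours inside the VILI 0 hours range. The call was lost in 16 of the alternatives for Lif, 9 for Stat3, 4 for Il6 and 2 for Osmr. Those of Il6st and Lifr held in every alternative.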

How the results depend on the processing

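The calls of Il6ra and Osm at both times, of Osmr, Lifr and Stat3 at 6 hours against control and of Il6st and Lifr between the VILI groups held in every alternative. Of 19 alternatives, the call of Lif between the VILI groups was lost in 16, of Stat3 there in 9, of Il6 there in 4 and against control in 5, of Osmr between the VILI groups in 2 and of Socs3 at 0 hours in 3, and the cause was not tested. Members called at 0 hours numbered 4 (not 2) with only the 6 libraries compared and 4 with library weights, and 3 (not 6) between the VILI groups with the row of highest mean. Genes called were 4816 and 5354 (not 2925) at 0 hours with the 6 libraries and with weights, 7679 (not 3594) at 6 hours with weights, and 1083 and 4047 (not 1760) between the VILI groups with the 6 libraries and with weights. The estimated weights were lowest for VILI 6 hours libraries 1 (0.195) and 3 (0.325). With weights 4, 6 and 4 members had an adjusted p under 0.05 (limma), beside 15.6%, 33.6% and 2.55% of all genes, and with only the 6 libraries 4 at 0 hours, beside 10.4%. Lif at 6 hours against control reversed to -1.07 with weights and -0.62 with the row of highest mean, and Il6ra between the VILI groups to 0.03 with weights, none of them called in the reported fit. With weights the lower Lif was called (limma adjusted p = 0.0799), which brought the members called there to 7. Median-centring moved the share of calls that were higher from 41.1% to 53.3% at 0 hours and from 37.7% to 52.7% at 6 hours, by removing shifts of -0.08 and -0.11 on the log2 scale, and left the members called against control at 2 and 6. Between the VILI groups it took them from 6 to 4, without Lif and Stat3.

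Leaving out 1 library gave 1826 to 4223, 2285 to 6945 and 1266 to 3975 genes called in the 3 comparisons, the highest in each without VILI 6 hours library 1. The lowest came without control library 2 at 0 hours (1826; 1939 without control library 1) and at 6 hours (2285; 2335 without control library 3). Members called were 2 to 4, 5 to 6 and 3 to 5, with 4 at 0 hours without VILI 6 hours library 3 and 3 between the VILI groups without VILI 0 hours library 2 or 3 or VILI 6 hours library 3. The log2 ratio of Osmr to Lifr at 0 hours against control ran from -0.09 to 0.10. Uncalled log2 fold changes that changed sign ran from -0.45 to 0.20 for Il6 at 0 hours, -0.49 to 0.78 for Lif at 6 hours, and -0.85 to 0.50 for Osm and -0.28 to 0.14 for Il6ra between the VILI groups.

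The replicate numbers do not pair the libraries, since deviations of same-numbered libraries correlated at -0.251 to 0.034. With a replicate block 2, 6 and 5 members and 2618, 3157 and 1512 genes were called, Lif between the VILI groups being the call lost (limma adjusted p = 0.567) and Socs3 there the call gained (adjusted p = 0.547). No listed alternative was left out. Values near 0.1 FPKM, as for Il11 and for Il6 before 6 hours, limit what could be detected, and 3 libraries per group limit every test.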
